A study of Mus musculus with 9 samples.

Results

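The genes examined were 8 members of the dystrophin-associated complex and the channels it holds at the astrocyte endfoot, namely Dmd, Utrn, Dag1, Sspn, Dtna, Sntb1, Aqp4 and Kcnj10, of 22092 genes in the deposited counts. They were listed by symbol, with no threshold on a measured value, but with earlier results of these data known. Each was represented by the 1 deposited transcript with the highest CPM (counts scaled to a common library total) summed over libraries, and all 8 passed the filter on low counts. The question was which messages of the complex were bound to astrocyte ribosomes at the vessel, relative to the astrocyte as a whole.

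The complex links the cytoskeleton of a cell to the basement membrane outside it. Dystrophin or its homologue utrophin lies under the membrane, dystroglycan crosses to the outside and binds laminins, agrin and perlecan, and dystrobrevins and syntrophins are attached on the inner side. In astrocytes the complex sits at the endfoot, the flattened end of the process that covers a brain vessel. There it anchors the water channel aquaporin-4, and the potassium channel Kir4.1 lies in the same membrane.

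All mice were 2 months old and carried tg:Aldh1L1-L10aGFP (strain Aldh1L1 JD130), a bacterial artificial chromosome in which the astrocyte promoter of Aldh1l1 drives the ribosomal protein L10a fused to eGFP, so that ribosome-bound RNA can be pulled down with GFP antibodies (TRAP). Whole astrocyte TRAP comprised 3 libraries, each from 1 brain with the choroid plexus removed. Endfeet TRAP comprised 6 libraries, each from purified brain vessels pooled from 8 mice, which keep the endfeet membranes but lose most astrocyte cell bodies. No source says that the libraries came from separate litters or days, so p-values measure the spread between these libraries, which may in part be technical. Gene counts summed to 35984144 to 43521208 per whole astrocyte library and to 2319495 to 13450588 per endfeet library, and endfeet library 6 was the smallest.

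The preparations also differed in other cells' messages. Summed levels of 14 endothelial markers were 13.6 to 19.7 CPM in whole astrocyte TRAP and 3100 to 6780 CPM in endfeet TRAP, with Ly6c1 at 0 in every whole astrocyte library. Mural cell markers (13 genes) stood at 46.1 to 54.7 against 3373 to 8550 CPM, and fibroblast markers (7 genes) at 22.3 to 31.8 against 363 to 1112 CPM. Microglia and macrophage markers (10 genes) ranged from 22.6 to 27.0 against 192 to 388 CPM, and ependymal and choroid markers (7 genes, mostly Ttr) from 52.8 to 1506 against 6722 to 72498 CPM. All 14 endothelial and all 13 mural markers passed the test as higher, as did 6, 7 and 5 genes of the other 3 lists. The astrocyte list (20 genes) summed to 57214 to 59605 CPM in whole astrocyte TRAP and 16312 to 37457 CPM in endfeet TRAP, with 10 genes lower and 0 higher. Neuronal markers (8 genes, 3 lower) stood at 3613 to 4114 against 982 to 1872 CPM, and oligodendrocyte markers (7 genes, 1 lower) stood at 653 to 680 against 241 to 527 CPM. Since vessel cell markers moved with the groups in every library, RNA of vessel cells and RNA of the endfeet cannot be told apart in any single gene below, nor can fewer cells of a type be told apart from less RNA per cell.

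Of the 8 genes, 5 were higher in endfeet TRAP (Utrn, Sspn, Dag1, Aqp4 and Kcnj10), 1 was lower (Dtna) and 2 were not called (Dmd and Sntb1), at an adjusted p of at most 0.05 in edgeR's quasi-likelihood test over 14427 genes. Over all genes tested, 20.7% were called higher and 13.9% lower. The median log2 fold change was 1.37 over the 8 genes and 0.10 over all genes tested. Because earlier results of these data were known when the genes were chosen, these comparisons with all genes are not independent of the data. In normalized counts (raw counts divided by a size factor per library), all 6 endfeet libraries lay above all 3 whole astrocyte libraries for the same 5 genes and below them for Dtna. In CPM with TMM scaling Kcnj10 overlapped and the other 4 were above. Such separation was seen in 19.1% (above) and 23.3% (below) of all genes.

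**Figure D1:**
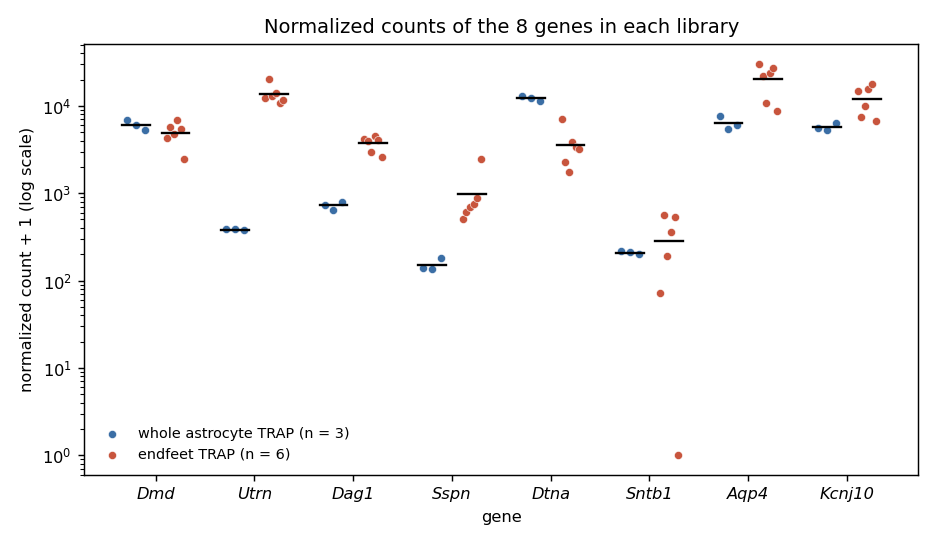
Normalized count plus 1 on a log axis for each of the 8 genes. Blue points are the 3 whole astrocyte TRAP libraries, red points the 6 endfeet TRAP libraries, and black bars the group means. Utrn is separated most widely, from 373 to 389 in whole astrocyte TRAP to 10895 and above in endfeet TRAP, Dmd and Sntb1 overlap, and the lowest red point of Sntb1 is a library with no count.

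Dystrophin and utrophin, the pair of large homologous proteins that bind actin on one side and dystroglycan on the other, behaved differently. Dmd (chrX:82948903-85206141, plus strand, mm10; 79 exons) had normalized counts of 6843, 6076 and 5265 in the 3 whole astrocyte libraries and of 4262, 5791, 4715, 6807, 5381 and 2430 in endfeet libraries 1 to 6. The groups overlapped. The log2 fold change of endfeet over whole astrocyte was -0.31 (SE 0.304, 95% interval -0.97 to 0.34, edgeR adjusted p = 0.452).

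Utrn (chr10:12382188-12861735, minus strand; 74 exons) had 389, 384 and 373 normalized counts in whole astrocyte TRAP. In endfeet TRAP it had 12317, 20321, 13106, 14091, 10895 and 11651. Every endfeet library was thus far above the whole astrocyte range, with group means of 13730 ± 3415 (SD, n = 6) and 382 ± 7.77 (SD, n = 3), a ratio of 36.0. This came to a log2 fold change of 5.15 (SE 0.333, 95% interval 4.44 to 5.87, edgeR adjusted p = 2.7e-07).

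The balance of the 2 genes within a library does not depend on how libraries are scaled. The log2 ratio of Utrn over Dmd (normalized counts plus 1) was -4.13, -3.98 and -3.81 in whole astrocyte TRAP, and 1.53, 1.81, 1.47, 1.05, 1.02 and 2.26 in endfeet libraries 1 to 6. The means differed by 5.50 (two-sided exact permutation test over the 84 splits of 9 libraries, p = 0.0119, the smallest the design allows; adjusted over the 6 ratios tested, p = 0.0238).

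The Dmd gene makes several dystrophins from internal promoters, and the short form Dp71 is the main one known in glia. In the annotation, the Dp71 transcript (Dmd-201, chrX:85048413-85205039, 18 exons, 4438 bases) begins in the intron after exon 62 of the full-length transcript (Dmd-203, 14910 bases), and 4391 of its bases lie in full-length exons. A read in those exons was counted on both transcripts, so the full-length count holds the Dp71 reads. In turn, the Dp71 count holds reads of longer forms in those exons. The next lines show where the forms part: lower case marks what each has alone, capitals the first 30 bases of exon 63 that both share (chrX:85053971-85054000).
Dp71, from its start codon (chrX:85048440-85048459): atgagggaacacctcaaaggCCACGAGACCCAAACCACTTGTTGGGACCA
full-length, end of exon 62 (chrX:84974736-84974765): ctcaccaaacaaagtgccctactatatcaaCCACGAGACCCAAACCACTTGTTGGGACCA

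RefSeq gives a start near each end of this division, 33 bases before the annotated start of Dmd-203 and 118 bases before that of Dmd-201, and the windows around them are shown to set the 2 regions side by side. Each window has 300 bases, 250 before the RefSeq start and 50 after it (GRCm38.p6, plus strand), so that the first holds the annotated start of Dmd-203 and the second ends before that of Dmd-201. Letters are in capitals where a motif was found: TATAAA was searched on both strands, as was the motif GGGCGG, matches on the minus strand are shown as they read on the plus strand, and overlapping matches run together.
RefSeq start before Dmd-203 (chrX:82948620-82948919): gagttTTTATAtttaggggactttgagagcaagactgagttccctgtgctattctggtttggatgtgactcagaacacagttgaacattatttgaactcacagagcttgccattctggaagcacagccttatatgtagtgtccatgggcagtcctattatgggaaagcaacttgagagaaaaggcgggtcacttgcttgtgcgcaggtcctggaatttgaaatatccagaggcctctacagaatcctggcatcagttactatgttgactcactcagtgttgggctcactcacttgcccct
RefSeq start before Dmd-201 (chrX:85048045-85048344): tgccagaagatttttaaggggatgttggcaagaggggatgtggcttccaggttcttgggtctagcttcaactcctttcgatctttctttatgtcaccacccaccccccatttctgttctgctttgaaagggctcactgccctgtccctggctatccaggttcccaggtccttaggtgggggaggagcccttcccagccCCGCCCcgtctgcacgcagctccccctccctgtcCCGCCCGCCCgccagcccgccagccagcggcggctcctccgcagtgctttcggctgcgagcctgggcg

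The window before Dmd-203 was 45.7% G and C, with 1 TATAAA and 0 GGGCGG on either strand. The window before Dmd-201 was 62.7% G and C, with 0 TATAAA and 3 GGGCGG. Among 32851 such windows of mouse genes, the median was 52.7% G and C, 13.6% held TATAAA and 35.7% held GGGCGG. These letters are a description of the windows only.

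Counts on Dp71 were 19330, 17478 and 18347 in whole astrocyte TRAP, where full-length counts were 19865, 17997 and 18969. Full-length counts outside Dp71, obtained by subtraction, were thus 2.69%, 2.88% and 3.28% of full-length counts. In endfeet libraries 1 to 6 the share was 32.0%, 31.2%, 29.8%, 38.5%, 16.4% and 18.6%. No endfeet library came near the whole astrocyte range. In absolute terms the counts outside Dp71 were 14.3 to 14.9 CPM in whole astrocyte TRAP and 31.5 to 206 CPM in endfeet TRAP (median 106), while Dp71 had 422 to 537 CPM against 138 to 355 CPM (median 307). Those bases include 9417 before the Dp71 start and 1102 after its end. Reads in them cannot be assigned to 1 form, so the share outside Dp71 does not measure full-length dystrophin alone.

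A fit with the 2 parts as separate features, added after their values had been seen, gave a log2 fold change of 3.0 for the counts outside Dp71 (SE 0.535, edgeR adjusted p = 8.2e-04), called with every library left out in turn (2.59 to 3.19). The Dp71 part had -0.77 (SE 0.280, edgeR adjusted p = 0.0488), which reversed to 0.75 (adjusted p = 0.121) when libraries were scaled to the astrocyte markers. The Dp71 call was lost without whole astrocyte library 1, 2 or 3 (adjusted p = 0.212, 0.133 and 0.0901) and without endfeet library 1, 2 or 3 (0.0717, 0.0741 and 0.0928).

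The shorter annotated Dmd transcripts gave a view that needs no subtraction, though it draws in part on the same reads. The fit by transcript was added after values had been seen. Of 14 deposited Dmd transcripts, 6 lie wholly before the Dp71 start. Together they had 7.65 to 8.25 CPM in whole astrocyte TRAP and 22.4 to 77.3 CPM in endfeet TRAP. With each transcript as a feature (15.6% of 51506 called higher and 10.1% lower), 3 of the 6 were higher: Dmd-212 (log2 fold change 2.89), Dmd-210 (3.65) and Dmd-205 (2.66), at edgeR adjusted p = 0.0150, 0.0208 and 0.0485. The other 3 had 2.96 (Dmd-208), 2.13 (Dmd-209) and 1.51 (Dmd-214) and were not called. Among transcripts that start where Dp71 does, Dmd-202 was lower (-0.91, edgeR adjusted p = 0.0374), and Dmd-201 had -0.66 (adjusted p = 0.110). The 6 transcripts are annotated as retained introns or processed transcripts and share bases with one another, so they are not independent. Of the 10213 bases they cover together, 4542 lie in exons of the full-length transcript. Their counts can therefore include reads outside those exons and do not measure full-length exons alone.

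**Figure D2:**
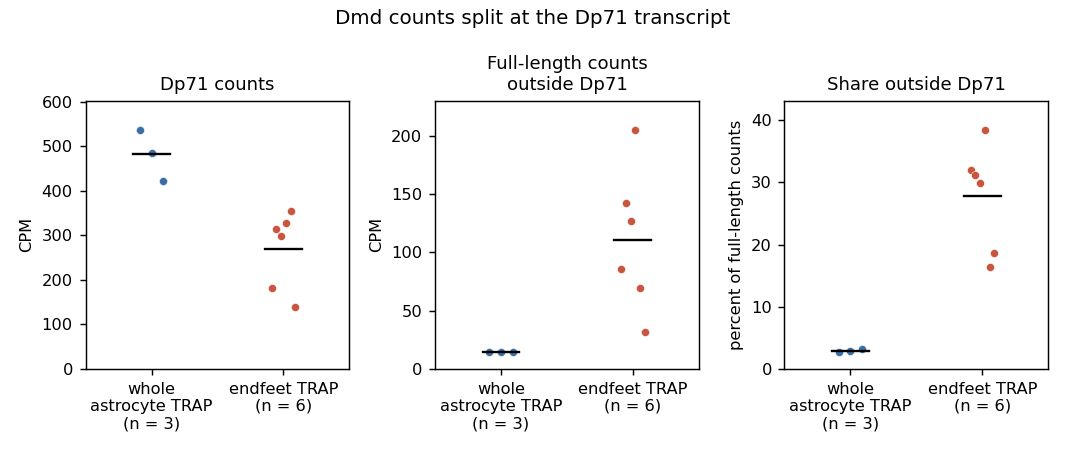
Dmd counts divided at the Dp71 transcript, for 3 whole astrocyte TRAP libraries (blue) and 6 endfeet TRAP libraries (red), with black bars at the means. Left and middle panels give CPM on and outside Dp71, and the right panel the share outside Dp71 in percent of full-length counts, 2.69% to 3.28% against 16.4% to 38.5%.

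Dag1 (chr9:108205958-108263736, minus strand) encodes dystroglycan, the receptor that is cut into an outer and a membrane-spanning part. Its normalized counts were 727, 648 and 790 in whole astrocyte TRAP and 4179, 3951, 2977, 4457, 4097 and 2622 in endfeet TRAP. The lowest endfeet library was above the highest whole astrocyte library. Its log2 fold change was 2.35 (SE 0.289, 95% interval 1.73 to 2.97, edgeR adjusted p = 4.7e-05), and the ratio of means 5.15. The 3 deposited Dag1 transcripts had nearly the same counts and cannot be separated.

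Sspn (chr6:145934122-145965223, plus strand) encodes sarcospan, a small membrane protein with several membrane spans that associates with the complex. It had 137, 133 and 182 normalized counts in whole astrocyte TRAP and 505, 605, 685, 743, 869 and 2461 in endfeet TRAP. All endfeet libraries were higher, and endfeet library 6 stood apart from the others. The log2 fold change was 2.65 (SE 0.556, 95% interval 1.45 to 3.85, edgeR adjusted p = 0.0025) and 2.18 without that library. An RNA on the opposite strand, Sspnos, covers 69 bases (1.56%) of the transcript, and strand use in counting is not given in the sources used here.

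Dtna (chr18:23415442-23659715, plus strand) encodes alpha-dystrobrevin, which binds dystrophin and carries syntrophins. It had 12860, 12453 and 11318 normalized counts in whole astrocyte TRAP. In endfeet TRAP it had 7113, 2279, 1747, 3859, 3377 and 3203. Every endfeet library was below the whole astrocyte range, with a log2 fold change of -1.79 (SE 0.351, 95% interval -2.54 to -1.03, edgeR adjusted p = 0.0016). Both deposited transcripts, Dtna-202 (-1.68) and the shorter Dtna-201 (-1.98), were lower when each transcript was tested (edgeR adjusted p = 0.0031 and 0.0189). A read in exons common to both was counted on each, so these are not independent results. Under scaling to the astrocyte markers the value was -0.36 (adjusted p = 0.434) and no longer called.

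Sntb1 (chr15:55636388-55906949, minus strand) encodes beta1-syntrophin, an adaptor that links signalling proteins and channels to the complex. Its normalized counts were 215, 212 and 198 in whole astrocyte TRAP and 71.2, 562, 190, 356, 535 and 0 in endfeet TRAP. Endfeet libraries lay on both sides of the narrow whole astrocyte range, 3 above and 3 below. Its estimate of 0.47 had a 95% interval of -1.62 to 2.55 (edgeR adjusted p = 0.742), which takes in both a rise and a fall. The 0 stands in endfeet library 6, in which 3 counts correspond to 1.29 CPM.

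Aqp4 (chr18:15389496-15403758, minus strand) encodes aquaporin-4. Its normalized counts were 7580, 5419 and 6046 in whole astrocyte TRAP and 30472, 21713, 10914, 23735, 26964 and 8775 in endfeet TRAP. All endfeet libraries were above, with libraries 3 and 6 nearest to the whole astrocyte range. This gave a log2 fold change of 1.67 (SE 0.406, 95% interval 0.80 to 2.55, edgeR adjusted p = 0.0064).

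Kcnj10 (chr1:172341210-172374085, plus strand) encodes Kir4.1, which takes up potassium from the extracellular space. It had 5618, 5273 and 6291 normalized counts in whole astrocyte TRAP and 14852, 7450, 9948, 15748, 17858 and 6642 in endfeet TRAP. The endfeet libraries were all higher, though library 6 only just. The log2 fold change was 1.07 (SE 0.349, 95% interval 0.31 to 1.82, edgeR adjusted p = 0.0311). The call was lost without endfeet library 4 or 5 (adjusted p = 0.0911 and 0.0917), without whole astrocyte library 1, 2 or 3 (0.0962, 0.126 and 0.0854) and with endfeet libraries 4 to 6 alone (0.0520).

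Both channel messages stood higher against the astrocyte markers, a list whose own median log2 fold change was -1.15. So did most genes. With libraries scaled to these markers, the median of all genes tested was 1.67, and 42.0% were called higher. Aqp4 lay 1.42 and Kcnj10 0.80 above that median. The log2 ratio of Kcnj10 over the geometric mean of the 20 astrocyte markers was -1.16 ± 0.0857 (SD, n = 3) in whole astrocyte TRAP and 1.31 ± 0.169 (SD, n = 6) in endfeet TRAP. That is a difference of 2.47, with the endfeet libraries close together at 1.08 to 1.5 (exact permutation p = 0.0119, adjusted p = 0.0238). For Aqp4 the ratio was -1.02 ± 0.207 (SD, n = 3) against 2.02 ± 0.454 (SD, n = 6), a difference of 3.05 (exact permutation p = 0.0119, adjusted p = 0.0238). Against each other, Aqp4 over Kcnj10 differed by 0.58 (0.14 ± 0.259 and 0.72 ± 0.501; exact permutation p = 0.0833, adjusted p = 0.1), and the ratio exceeded the whole astrocyte maximum in 4 endfeet libraries.

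The order of the 8 messages by level per length differed between the groups. In whole astrocyte TRAP, mean CPM per kilobase of transcript was 158.7 for Dtna, 102.7 for Aqp4, 86.8 for Kcnj10, 33.2 for Dmd, 13.4 for Dag1, 3.47 for Sntb1, 2.78 for Sspn and 2.52 for Utrn. Ranges over libraries overlapped between Aqp4 and Kcnj10 and among the last 3 genes, as far as neighbours were compared. In endfeet TRAP the means were 303.7 for Aqp4, 170.3 for Kcnj10, 85.3 for Utrn, 64.1 for Dag1, 41.7 for Dtna, 25.5 for Dmd, 16.5 for Sspn and 4.61 for Sntb1. There every neighbouring pair overlapped in range, but Aqp4 was above Kcnj10, and Sspn above Sntb1, in 6 of 6 libraries. The other neighbouring pairs kept their order in 4 or 5 of 6 libraries. By the means, Dtna stood at positions 1 and 5, and Utrn at position 3 in endfeet TRAP, while in whole astrocyte TRAP Sspn was above Utrn in only 1 of 3 libraries. On the same scale, counts on Dp71 gave 108.4 and 60.7 CPM per kilobase, and the full-length bases outside it 1.38 and 10.5. The former include reads of longer forms in the shared exons and are not the level of Dp71 alone. The level of Dmd above is divided by the full length, though most of its counts lay on Dp71. Counts on Dp71 divided by its length gave 31.1 to 80.0 CPM per kilobase in endfeet TRAP. These values overlapped the 62.3 to 129.6 of Utrn and were the higher in endfeet library 5 (80.0 against 69.4). Without any scaling beyond library totals, endfeet library 6 reached 121.05 for Aqp4, beside a whole astrocyte maximum of 120.99, and its 85.6 for Kcnj10 lay inside the whole astrocyte range of 80.1 to 96.3.

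**Figure D3:**
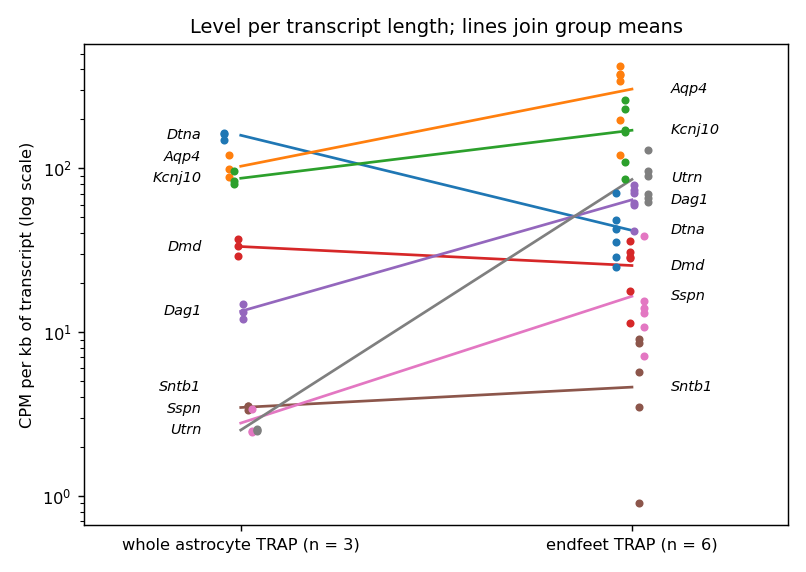
CPM per kilobase of transcript on a log axis for the 8 genes, 3 whole astrocyte TRAP libraries at left and 6 endfeet TRAP libraries at right. Points are libraries and lines join the group means. The library with no Sntb1 count cannot be drawn on a log axis but enters the mean. The line of Utrn climbs from 2.52 to 85.3 and crosses that of Dtna, which drops from 158.7 to 41.7.

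Scaling bore on the signs. With libraries scaled to the astrocyte markers, the median of all genes moved from 0.10 to 1.67, 42.0% of genes were called higher and 1.83% lower, and 6 of the 8 genes were higher and 0 lower. Dmd then turned to 1.20 (edgeR adjusted p = 0.0236), from -0.31. Relative to the median of all genes under that scaling, the 8 values were 5.10 for Utrn, 2.72 for Sspn, 2.19 for Dag1, 1.42 for Aqp4, 0.80 for Kcnj10, 0.29 for Sntb1, -0.47 for Dmd and -2.03 for Dtna. The order of the genes was the same as without it.

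The other genes of the complex were mixed. Of 14 genes, 9 had enough counts to be tested, of which 3 were higher, 1 lower and 5 not called (median log2 fold change 0.89). For this and each list below, the share over all genes tested was 20.7% higher and 13.9% lower. Sntb2, encoding beta2-syntrophin, had 81.0 to 139 normalized counts in whole astrocyte TRAP and 675 to 1159 in endfeet TRAP (median 897), without overlap, and a log2 fold change of 2.97 (SE 0.421, edgeR adjusted p = 1.4e-04). Nos1, the neuronal nitric oxide synthase that binds syntrophin, rose from 168 to 196 normalized counts to 303 to 1312, a log2 fold change of 2.19 (SE 0.499, edgeR adjusted p = 0.0043). Sgce, encoding epsilon-sarcoglycan, had 1.42 (SE 0.467, edgeR adjusted p = 0.0316), a call lost with endfeet libraries 4 to 6 alone (1.02, adjusted p = 0.0782), without endfeet library 2 or 5 (1.34 and 1.27, adjusted p = 0.0534 and 0.0686) and without whole astrocyte library 1, 2 or 3 (1.42, 1.35 and 1.5; adjusted p = 0.12, 0.139 and 0.102).

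Drp2, a short dystrophin relative, was lower, from 1582 to 1626 normalized counts to 315 to 999 (log2 fold change -1.40, SE 0.396, edgeR adjusted p = 0.0153), but was not called without whole astrocyte library 1, 2 or 3 (adjusted p = 0.0632, 0.0546 and 0.0588) nor under scaling to the astrocyte markers (-0.02).

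Other tested genes of the complex had wide intervals. Sgcb, encoding beta-sarcoglycan, had 0.89 (95% interval -0.15 to 1.94). Sntg2 had 1.93 (-1.12 to 4.98), Sntg1 -0.26 (-2.12 to 1.60) and Dtnb, encoding beta-dystrobrevin, -0.61 (-2.52 to 1.31). The last 2 turned positive under scaling to the astrocyte markers (1.02 and 0.99) but were not called (edgeR adjusted p = 0.380 and 0.453). Sgcb was called higher under that scaling (2.33, edgeR adjusted p = 0.0023). Without the 2 smallest endfeet libraries, Sntg2 was called higher (2.48, edgeR adjusted p = 0.0457). The log2 ratio of Dtna over Dtnb was 5.51 ± 0.0810 (SD, n = 3) and 5.42 ± 3.27 (SD, n = 6), the latter with endfeet library 6, which had 0 counts of Dtnb (exact permutation p = 0.952). Dytn, Sgca, Sgcd and Sgcz were too low to test.

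**Figure D4:**
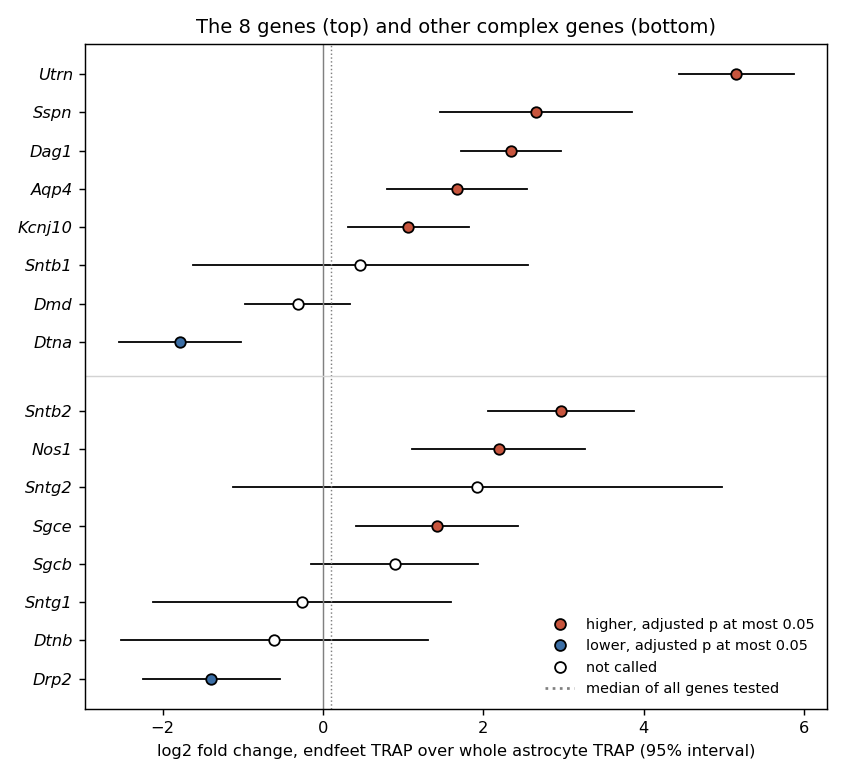
Log2 fold change of endfeet TRAP over whole astrocyte TRAP with 95% intervals, for the 8 genes (top) and 8 other tested genes of the complex (bottom). Filled points passed an edgeR adjusted p of 0.05, red as higher and blue as lower, and the dotted line is the median of all genes tested, 0.10. Utrn (5.15) and Sntb2 (2.97) lead their groups, and the intervals of Sntb1 and Sntg2 span several log2 units.

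Outside the cell, dystroglycan binds proteins with laminin G domains. Of 11 such genes, 8 were higher and 0 lower, with a median log2 fold change of 4.67. Hspg2, encoding the basement membrane proteoglycan perlecan, had 8.03 (SE 0.667), from 4.05 to 5.0 normalized counts to 721 to 2549. The laminin chain genes Lama1 and Lama5 had 7.70 (SE 0.606) and 6.47 (SE 0.554). The 3 neurexin genes, whose products bind dystroglycan at synapses, were not called, with values from -0.81 to 0.38. Laminins and perlecan are also known products of vessel cells, and endothelial and mural markers moved with them in every library. The part of vessel cells in the result cannot be told apart.

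Dystroglycan must carry a long sugar chain to bind those ligands. Of 17 genes that build it, 2 were higher, 1 lower and 14 not called (median 0.42). B3galnt2 rose by 2.11 (SE 0.436) and Pomt2, one of the enzymes that start the chain, by 1.84 (SE 0.437), at edgeR adjusted p = 0.0023 and 0.0055. Dpm1, a subunit of the enzyme that makes the mannose donor, fell by 2.29 (SE 0.595, edgeR adjusted p = 0.0095), but was not called under scaling to the astrocyte markers (-0.71) or with its longest transcript (-1.04).

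Of 8 partners in the cytoskeleton, 3 were higher, 1 lower and 4 not called (median 0.12). Plec, encoding the linker plectin, and Synm, encoding the intermediate filament protein synemin, rose by 5.07 (SE 0.329) and 4.58 (SE 0.425). The ankyrin genes went opposite ways, Ank3 with 1.70 (SE 0.473, edgeR adjusted p = 0.0141) and Ank2 with -2.16 (SE 0.281, edgeR adjusted p = 7.4e-05), the latter -0.61 and not called under scaling to the astrocyte markers. The Ank3 call was lost without whole astrocyte library 2 or 3 (1.58 and 1.72, adjusted p = 0.0734 and 0.0567).

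Of the 11 other aquaporins, 3 could be tested. Aqp1, the water channel of the choroid plexus, had 7.58 to 24.0 normalized counts in whole astrocyte TRAP and 170 to 1064 in endfeet TRAP, a log2 fold change of 4.90 (SE 0.906, edgeR adjusted p = 0.0011). Ttr, the most abundant choroid plexus message, moved the same way in normalized counts, from 362 to 17631 in whole astrocyte TRAP to 81752 to 1134682 in endfeet TRAP, and its part in the Aqp1 result was not tested. Aqp9 (-2.18) and Aqp11 (1.48) were not called.

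Of 14 other inward rectifier potassium channel genes, 12 were tested, 5 were higher and 0 lower (median 1.47). Kcnj8, known from pericytes, led with 8.52 (SE 0.852), from 0.34 to 5.27 normalized counts to 689 to 1924. Kcnj13, known from choroid plexus, had 5.40 (SE 0.660). Kcnj15 was also called, on 0 to 0.34 normalized counts in whole astrocyte TRAP and 0 to 229 in endfeet TRAP, ranges that overlap, and was not called without whole astrocyte library 1, 2 or 3 (adjusted p = 0.0975, 0.116 and 0.105). Kcnj16, encoding Kir5.1, which pairs with Kir4.1, had 0.11 (SE 0.511, 95% interval -0.99 to 1.22) and was not called. Over all these lists, 22 of 60 tested genes were higher, 3 lower and 35 not called. The shares over all genes tested were 20.7% higher and 13.9% lower. The lists, too, were chosen with earlier results of these data known. Of the 22 genes, 8 were dystroglycan ligands.

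**Figure D5:**
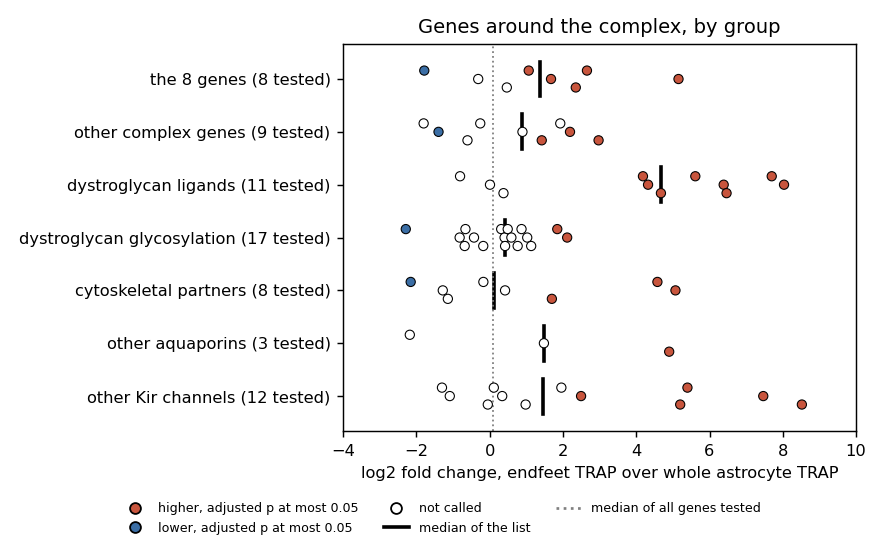
Log2 fold change of endfeet TRAP over whole astrocyte TRAP for each tested gene of the complex and of 6 related groups. Red points were called higher and blue points lower at an edgeR adjusted p of 0.05, open points were not called, thick bars are group medians and the dotted line is the median of all genes tested. The dystroglycan ligands have the highest median (4.67) and fall into 8 genes at 4.18 and above and the 3 neurexins near 0.

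For each of the 8 genes, the 3 genes of nearest pattern were found as those with the smallest root mean square difference of mean-centred log2(CPM + 1) over the 9 libraries, among 8480 genes with at least 10 counts in every library. Utrn was nearest to Abhd2 (0.183 log2 units), Mylk (0.201) and Prom1 (0.219). Dag1 was nearest to Atp2c1 (0.144), Ubr4 and Slc38a1 (both 0.170), and Sspn to Tmem51 (0.219), Dnmt3a (0.274) and Poglut1 (0.280). Aqp4 ran closest to Tenm3 (0.131), Igfbp5 (0.221) and Znrf3 (0.230). Kcnj10 ran closest to Fads2 (0.165), Nrcam (0.213) and Mlc1 (0.226). Dmd was nearest to Mertk (0.178), Cdc42bpa (0.181) and Map9 (0.186), and Dtna to Scoc (0.125), Akr1b10 (0.177) and Rab1a (0.186). Sntb1, with a library at 0, was not among the genes compared. No member was among another member's nearest 3. With only 3 taken from 8480 genes, this cannot show whether the members moved together.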

How the data were processed

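Ribosome-bound RNA of 9 libraries (3 whole astrocyte TRAP, 6 endfeet TRAP; Mus musculus) had been amplified (Ovation RNA-Seq, NuGEN) and sequenced. Per the labels and the study's methods, the authors filtered the reads, aligned them to mm10 with Bowtie, removed reads aligned to several places and counted the rest with HTSeq 0.5.3 on Ensembl 75 transcripts. The deposited values are raw counts per transcript, and a read in several transcripts was counted on each. Strand use and the meaning of the numbers in the library names are not given in the sources used here.

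Of 75466 transcripts, 73164 matched the GENCODE M21 annotation (22092 genes). Each gene was represented by the transcript with the highest CPM summed over libraries. Endfeet and whole astrocyte TRAP were compared with edgeR 4.0.16 (TMM, filterByExpr, quasi-likelihood test, Benjamini-Hochberg over 14427 genes, threshold 0.05), with no covariate. The SE was the log2 fold change over the root of F. Normalized counts used DESeq2 size factors. Ratios of 2 genes (pseudocount 1) were tested by exact permutation. DESeq2 1.42.0 and limma voom 3.58.1, other scalings, filters, transcript choices and sets of libraries were alternatives (R 4.3.3). The tests were also run on simulated data with the same spread between libraries in both groups. The spread here was unequal (common dispersion 0.0141 in whole astrocyte and 0.725 in endfeet TRAP), and the simulation does not cover that. The Dmd split, the fit by transcript and 2 sets of libraries were added after values had been seen.

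The genes and lists were chosen with earlier results of these data known. Named genes were the 8 genes, other tested genes of the complex, up to 3 called genes per direction of each further list, the first 2 markers of each marker list and the 3 nearest genes by pattern; Ly6c1, Kcnj16, the neurexins, Aqp9 and Aqp11 were named after their values were seen. Sequences are from RefSeq (GRCm38.p6) or the GRCm38 genome at annotated exons. Of the 6 ratios, 1 is not reported here, nor are 2 genes of the lists. Counting floors cover counting error only.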

Additional observations from a re-analysis of the deposited data

Results flagged for a closer look

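Of 14 sets of 6 endfeet values screened for a library far from the others (gap to the nearest library over the whole range above 0.625, which chance exceeds in about 1 set in 20), 3 were exceptional. Utrn had 20321 normalized counts in endfeet library 2, against 10895 to 14091 in the other libraries, all of them far above whole astrocyte TRAP. Sspn had 2461 normalized counts in endfeet library 6, against 505 to 869. The log2 ratio of Dtna over Dtnb was 11.65 in endfeet library 6, where Dtnb had no count.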

How the results depend on the processing

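Utrn, Dag1, Sspn and Aqp4 kept their direction and call under every alternative run. With 1 library left out, log2 fold changes ranged from 5.01 to 5.21 for Utrn, 2.15 to 2.45 for Dag1, 2.18 to 2.83 for Sspn, 1.46 to 1.85 for Aqp4, 0.80 to 1.23 for Kcnj10, 0.07 to 0.73 for Sntb1, -0.57 to -0.16 for Dmd, -2.11 to -1.62 for Dtna, -0.98 to -0.64 for Dp71, 2.59 to 3.19 for Dmd outside Dp71 and -0.029 to 0.59 for Mbp. Ratio differences then ranged from 5.35 to 5.60 (Utrn over Dmd), -1.33 to 0.47 (Dtna over Dtnb), 2.90 to 3.16 (Aqp4 over the astrocyte markers) and 2.43 to 2.52 (Kcnj10 over them). With any 1 whole astrocyte library left out there are fewer splits, and none of these ratios passed (exact permutation test, smallest adjusted p = 0.0714). The related lists gave 17 to 23 genes higher and 2 to 5 lower. Over all genes the same fits called 1874 to 3380 higher and 1171 to 2642 lower, of 14183 to 14852 tested.

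Scaled to the astrocyte markers, 0 of the 8 genes and 0 related genes were lower and 34 related genes higher, with Dmd at 1.20, Dtna -0.36, Dp71 0.75, Sntg1 1.02, Dtnb 0.99, Mertk 1.23, Cdc42bpa 0.97 and Map9 1.13. Of all called genes 95.8% were then higher, against 59.9% in the main test, 49.8% with endfeet libraries 4 to 6 alone and 46.7% in limma voom. Genes called higher and lower numbered 2991 and 2006 in the main test, 3928 and 4485 in limma voom, 4019 and 3369 without the 2 smallest endfeet libraries, and 1874 to 1959 and 1171 to 1217 without 1 whole astrocyte library. The causes were not tested.

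With endfeet libraries 4 to 6 alone, Kcnj10 had 1.09 (edgeR adjusted p = 0.0520), Dp71 -0.87 (0.0768) and Sntg1 0.19, and the ratio differences were 5.42, 2.86, 2.47 (Utrn over Dmd, then Aqp4 and Kcnj10 over the astrocyte markers) and 1.59 (Dtna over Dtnb), where no ratio can pass. The numbers in the library names put endfeet libraries 1 to 3 in one series and all others in a second, so that the first holds no whole astrocyte library, and what they mark is not given. With this series as a covariate 1 related gene was lower, beside 1670 of all 14427 genes tested, and Sntg1 had 0.31. Ank3 (1.24), Kcnj15 (4.62), Sgce (1.15), Drp2 (-1.35) and Dpm1 (-2.11) were then not called (edgeR adjusted p = 0.0657, 0.118, 0.0984, 0.0563 and 0.0532). With no filter Kcnj10 had 1.01 (edgeR adjusted p = 0.0523), and at 10 counts in every library Sntb1 gave no value. Limma voom gave Sntb1 -0.081, summed transcripts gave Sntg1 0.031, and a pseudocount of 0.1 gave Dtna over Dtnb 0.47. Without the 2 smallest endfeet libraries 6 related genes were lower, beside 3369 of all 14263 genes tested, and Sntg1 had 0.24. With the longest transcript, whole astrocyte TRAP had 2.65 (Utrn) and 3.63 (Sntb1) CPM per kilobase, and Sgce had 1.11 (edgeR adjusted p = 0.150).

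Deviations of libraries of the same number had correlations of -0.04, 0.02 and 0.03, and those of different numbers -0.05 to 0.03. Values near 0 cannot show whether libraries were prepared in pairs. With replicate number as a block over libraries 1 to 3, Kcnj10 had 0.82 (edgeR adjusted p = 0.0646), Sntb1 -0.092, Mbp -0.60, Sgce 1.57 (0.0630) and Pomt2 1.52 (0.0782). Without the block those libraries gave Mbp -0.23 and 6 related genes lower, beside 2490 of all 14426 genes tested. Endfeet library 6, the smallest, held no count of Sntb1 or Dtnb.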
